A study of Mus musculus with 10 samples.

Results

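The genes described here are those of the major histocompatibility complex (MHC), class I and class II, with the genes that load and switch on their products. They were chosen by name. Every gene symbol beginning with H2- was taken, which gave 44 genes, and B2m, Cd74, Ciita, Tap1, Tap2, Tapbp and Nlrc5 were added. This made 51 genes of 24052 listed. RNA was sequenced from 10 livers of mice on a C57BL/6 background (C57BL/6N in the methods) fed ad libitum, with 1 library per liver. In the 5 Ndrg3 LKO livers, exon 4 of Ndrg3, flanked by loxP sites after Flp removed the selection cassette, was deleted by Cre recombinase under the albumin promoter, which is active in hepatocytes. Immune, endothelial and stellate cells of the same livers are not targets of that promoter. The 5 wild-type (WT) livers came from littermates, and whether these carried the floxed allele without Cre is not given in the sources used here. The mice used for these livers were 8 to 10 weeks old in the methods and 10 to 12 weeks old in a figure legend, and males were used unless the study said otherwise. Each mouse gave 1 liver, so p-values measure the spread between mice.

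Class I molecules consist of a heavy chain and β2-microglobulin, are made by nearly every nucleated cell, and carry peptides cut by the proteasome and pumped into the endoplasmic reticulum by the TAP transporter. Class II molecules consist of an α and a β chain assembled on the invariant chain, carry peptides made in endosomes, and are made mainly by macrophages, dendritic cells and B cells. NLRC5 drives transcription of class I genes and CIITA that of class II genes. In liver, hepatocytes make class I, while Kupffer cells and other resident immune cells account for most class II.

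The WT libraries held 20872262 to 24747870 counts and the Ndrg3 LKO libraries 23474693 to 30450057, so that the smallest signal taken as detectable, 3 counts, corresponded to 0.0985 to 0.144 counts per 1000000 counted reads (CPM). Such limits cover counting error only. Levels below are CPM after scaling by edgeR's TMM factors. Ndrg3 itself lay between 16 and 21.9 CPM in WT livers and between 7.08 and 9.18 CPM in Ndrg3 LKO livers. Ndrg3 LKO replicate 5 stood apart from the other Ndrg3 LKO livers. It lay at 14.1 on the first principal component, where WT livers lay between -49.9 and -43.1 and the other Ndrg3 LKO livers between 51.1 and 56.6. The 20 most abundant genes took 26.6% of its counts, against 26.2 to 28.0% in WT livers and 16.3 to 17.3% in Ndrg3 LKO replicates 1 to 4. Results are therefore also given without this liver. The legend of the study's RNA sequencing heatmap counts 5 WT and 4 Ndrg3 LKO livers, and does not say which was left out.

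Of the 51 genes, 23 reached 1 CPM in at least 5 livers and were tested. For this filter, CPM was taken before TMM scaling, so it differs from the levels printed below. Of the other 28, 14 had 0 counts in all 10 livers and 5 more had at most 3 counts in any liver. In all 10 livers, 9 of the 23 tested genes were higher in Ndrg3 LKO livers and 2 were lower (edgeR's quasi-likelihood test, Benjamini-Hochberg adjusted p under 0.05 over all 11208 genes tested). For comparison, 25.6% of all genes tested were higher and 23% were lower. The median log2 fold change of the 23 genes was 0.36, beside 0.031 over all genes tested. The split depends on the scaling, since with library sizes alone 13 members were higher and 0 lower, but 5834 of all genes were then higher and 1005 lower, against 2865 and 2578 with TMM. The 9 higher genes comprised the 6 tested class II genes (H2-Aa, H2-Ab1, H2-Eb1, H2-DMa, H2-DMb1 and Cd74), the non-classical class I genes H2-M3 and H2-Q4, and Tap1. The 2 lower genes were the classical class I gene H2-K1 and H2-Ke6. Without Ndrg3 LKO replicate 5, 10 of the same 23 genes were higher and 3 were lower, beside 28.4% higher and 27.2% lower over the 11446 genes tested in those 9 livers, and their median was 0.22. H2-DMa, H2-DMb1, H2-M3 and H2-Q5 reached 1 CPM before TMM scaling in only 2 to 4 WT livers. Their passing the filter thus rested in part on Ndrg3 LKO livers.

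**Figure D1:**
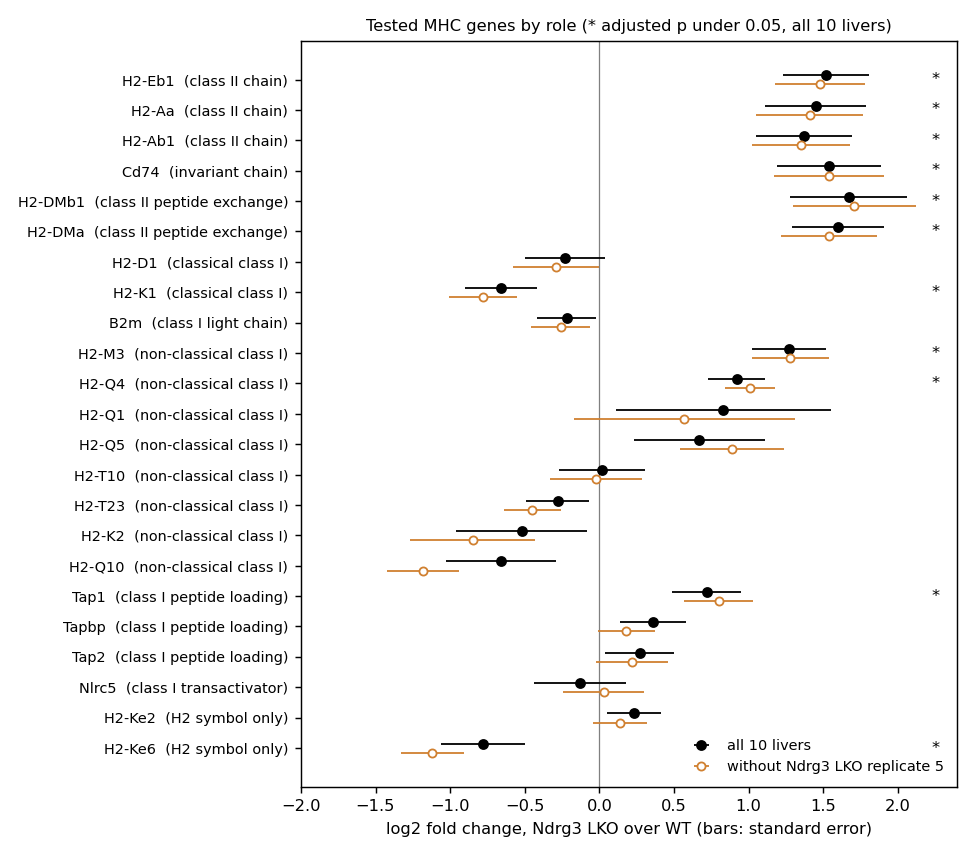
Log2 fold change of each of the 23 tested genes (horizontal axis, Ndrg3 LKO over WT, bars are standard errors), grouped by role, in all 10 livers (filled) and without Ndrg3 LKO replicate 5 (open). The 6 class II genes lie between 1.37 and 1.67, while the class I heavy chains run from -0.66 to 1.27.

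The class II genes gave the largest changes. H2-Aa and H2-Ab1 encode the α and β chains of the I-A molecule, and H2-Eb1 the β chain of I-E. H2-Aa stood at 16.6, 17.7, 20.4, 7.68 and 13.7 CPM in WT replicates 1 to 5 and at 66.4, 16.6, 49.7, 30.7 and 44.8 CPM in Ndrg3 LKO replicates 1 to 5. H2-Ab1 stood at 15.8, 16.3, 22.3, 9.43 and 16.8 CPM in WT and at 70, 18.3, 45.2, 31.7 and 43.5 CPM in Ndrg3 LKO livers. For both genes 4 Ndrg3 LKO livers exceeded every WT liver, and Ndrg3 LKO replicate 2 lay within the WT range. The log2 fold change was 1.45 for H2-Aa (standard error, SE, 0.34, edgeR adjusted p = 0.00477) and 1.37 for H2-Ab1 (SE 0.32, edgeR adjusted p = 0.00412), equal to 2.73-fold and 2.59-fold higher levels. H2-Eb1 stood at 11.4, 10.9, 11.9, 7.13 and 10.3 CPM in WT livers and at 47.2, 13.6, 33.7, 21.4 and 32.1 CPM in Ndrg3 LKO livers. Here every Ndrg3 LKO liver lay above every WT liver, a separation that 15.6% of all genes tested showed in this direction, and the log2 fold change was 1.52 (SE 0.29, edgeR adjusted p = 0.00135; exact permutation p = 0.00794, 2-sided and the smallest that 5 livers against 5 allow).

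H2-Aa and H2-Ab1 lie next to each other on chromosome 17 of the mm9 assembly, which the files use. H2-Ab1 runs on the plus strand from chr17:34400154-34406363 and H2-Aa on the minus strand from chr17:34406276-34424772, and their 3' ends overlap by 88 bp. The strand setting of the counting is not given in the sources used here, so reads from that overlap could have been lost or assigned to either gene. The level of H2-Aa divided by that of H2-Ab1 was 0.815 to 1.08 in WT livers and 0.905 to 1.1 in Ndrg3 LKO livers. H2-Eb1 (chr17:34442828-34453144, plus strand) shares no exon with another annotated gene, and its neighbour H2-Ea-ps, annotated as a pseudogene, had 0 counts in every liver.

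Cd74 encodes the invariant chain, which fills the groove of new class II molecules and guides them to endosomes. It was the most abundant class II gene in WT livers both in CPM and per length of its exons, at 19.8 CPM per kb beside 7.66 to 9.81 for H2-Aa, H2-Ab1 and H2-Eb1. Its levels were 24.3, 35.9, 35.3, 16.1 and 27.8 CPM in WT livers and 137, 31.7, 101, 56.8 and 77.3 CPM in Ndrg3 LKO livers. Again 4 Ndrg3 LKO livers exceeded every WT liver and Ndrg3 LKO replicate 2 lay within the WT range. The log2 fold change was 1.54 (SE 0.35, edgeR adjusted p = 0.00369). Relative to the summed CPM of the 3 chain genes, Cd74 was 0.555 to 0.798 in WT livers and 0.643 to 0.788 in Ndrg3 LKO livers, and the ranges overlapped.

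H2-DMa and H2-DMb1 encode chains of H2-DM, which releases the invariant chain remnant from class II molecules and edits their peptides. H2-DMa stood at 1.24, 2.54, 1.84, 1.43 and 2.21 CPM in WT livers and at 8.26, 2.65, 6.03, 4.82 and 6.47 CPM in Ndrg3 LKO livers. The groups did not overlap, although Ndrg3 LKO replicate 2 exceeded WT replicate 2 by little. H2-DMb1 stood at 1.24, 2.05, 1.84, 0.782 and 1.25 CPM in WT livers and at 7.11, 1.58, 6.21, 4.08 and 3.87 CPM in Ndrg3 LKO livers, with replicate 2 within the WT range. The log2 fold change was 1.60 for H2-DMa (SE 0.31, edgeR adjusted p = 0.00144) and 1.67 for H2-DMb1 (SE 0.39, edgeR adjusted p = 0.00438). H2-DMb1 shares 13% of its 100-base windows with other sequence of the MHC region and H2-DMb2 shares 10.5%, so their reads could have been split or left uncounted.

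Ciita, the master regulator of class II transcription, was too low to be tested with the others. It had 5, 5, 0, 4 and 5 counts in WT livers and 25, 26, 39, 13 and 19 counts in Ndrg3 LKO livers. In CPM it lay at 0 to 0.298 in WT and 0.371 to 1.01 in Ndrg3 LKO livers, so the groups did not overlap. Of the genes tested, 15.6% showed such a separation in this direction. When all genes with a count were fitted, the log2 fold change of Ciita was 1.78 (SE 0.52, edgeR adjusted p = 0.0161), a value that depends on few reads. The remaining class II genes were near the detection limit. H2-Oa, H2-Ob and H2-DMb2, which encode chains of the H2-DM antagonist H2-O and a second H2-DM β chain, and H2-Eb2 had 0 to 6 counts per WT liver and 0 to 30 counts per Ndrg3 LKO liver. Their log2 fold changes without the filter lay between 1.44 and 1.77, with adjusted p from 0.0825 to 0.204, so none of the 4 passed the test.

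**Figure D2:**
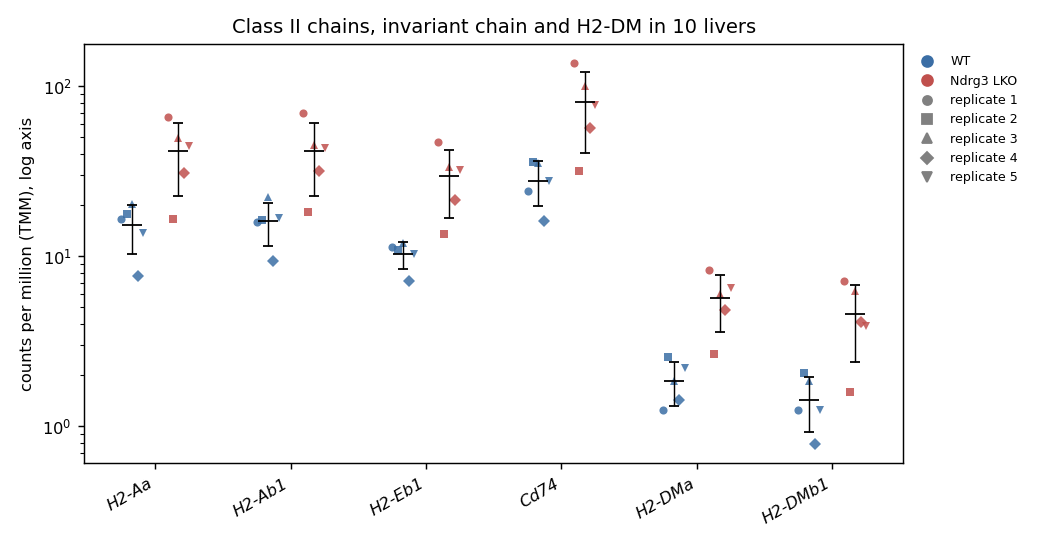
Level of 6 class II genes in each liver (vertical axis, TMM-normalized CPM on a log axis). Each symbol is 1 liver, and black bars show the mean and SD of 5 livers. The Ndrg3 LKO circles (replicate 1) are the highest and the squares (replicate 2) the lowest Ndrg3 LKO points for all 6 genes, and the squares lie at or near the WT livers.

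The spread among Ndrg3 LKO livers was shared by the class II genes. Replicate 1 was the highest and replicate 2 the lowest Ndrg3 LKO liver for 6 of 6 genes, and replicate 3 came second for 5. The summed level of H2-Aa, H2-Ab1, H2-Eb1 and Cd74 was 68.1, 80.8, 89.9, 40.3 and 68.6 CPM in WT livers and 321, 80.2, 230, 141 and 198 CPM in Ndrg3 LKO livers. Ptprc, the pan-leukocyte gene for CD45, followed the same order within the Ndrg3 LKO group, at 9.16, 3.18, 7.94, 4.37 and 6 CPM, against 1.97, 3.13, 3.12, 2.21 and 2.27 CPM in WT livers. The class II sum divided by Ptprc was 34.6, 25.8, 28.8, 18.2 and 30.3 in WT livers and 35, 25.2, 29, 32.2 and 33 in Ndrg3 LKO livers. The groups overlapped on this ratio, whereas the class II sum of 4 Ndrg3 LKO livers lay above all WT livers.

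All 8 Kupffer cell and macrophage markers tested were higher in Ndrg3 LKO livers, beside 25.6% of all genes tested. The median log2 fold change of the 8 markers was 1.31 (1.42 without replicate 5). Their summed level was 81.3 to 207 CPM in WT livers and 184 to 574 CPM in Ndrg3 LKO livers, and the defining genes of resident Kupffer cells were present in both groups. Clec4f, a Kupffer cell lectin, stood at 47.8 ± 20.6 CPM (SD, n = 5) in WT and 103 ± 45.3 CPM in Ndrg3 LKO livers. The smallest of the 8 changes was that of Timd4 (log2 fold change 1.09, SE 0.40, edgeR adjusted p = 0.0412) and the largest that of the scavenger receptor Marco (4.30, SE 0.53, edgeR adjusted p = 9.07e-05). Within the Ndrg3 LKO group the macrophage sum was lowest in replicate 2, as were the class II genes, but replicate 3 at 573 CPM was level with replicate 1 and replicate 5 stood at 241 CPM.

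Markers of other antigen-presenting cells were low. The 6 B cell markers summed to 0.656 to 1.52 CPM in WT livers and to 3.34, 1.31, 2.71, 2.57 and 9.39 CPM in Ndrg3 LKO livers, and none reached 1 CPM in 5 livers. Their highest sum was in Ndrg3 LKO replicate 5, as was that of the neutrophil markers, at 12.8 CPM against at most 0.929 CPM in WT livers. Of 7 dendritic cell markers only Clec9a was tested, with a log2 fold change of 0.47 (SE 0.33, edgeR adjusted p = 0.259), and the sum of the 7 overlapped between groups (2.74 to 4.78 CPM in WT, 2.86 to 5.95 CPM in Ndrg3 LKO livers). That sum joins untested markers of both directions. Itgax, Flt3, Siglech and Ccr7 had higher means in Ndrg3 LKO livers (Flt3 0.358 against 0.139 CPM in WT). Xcr1 and Zbtb46 had lower means (Zbtb46 0.701 against 1.24 CPM in WT). Of 5 monocyte markers only Lyz2, also a macrophage gene, was tested, and it was higher (1.47, SE 0.37, edgeR adjusted p = 0.00656). None of the 8 T and NK cell markers reached the filter, and their sum was 1.67 to 3.07 CPM in WT and 1.97 to 7.57 CPM in Ndrg3 LKO livers. In liver tissue, more cells of a type and more RNA of these genes per cell cannot be told apart.

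**Figure D3:**
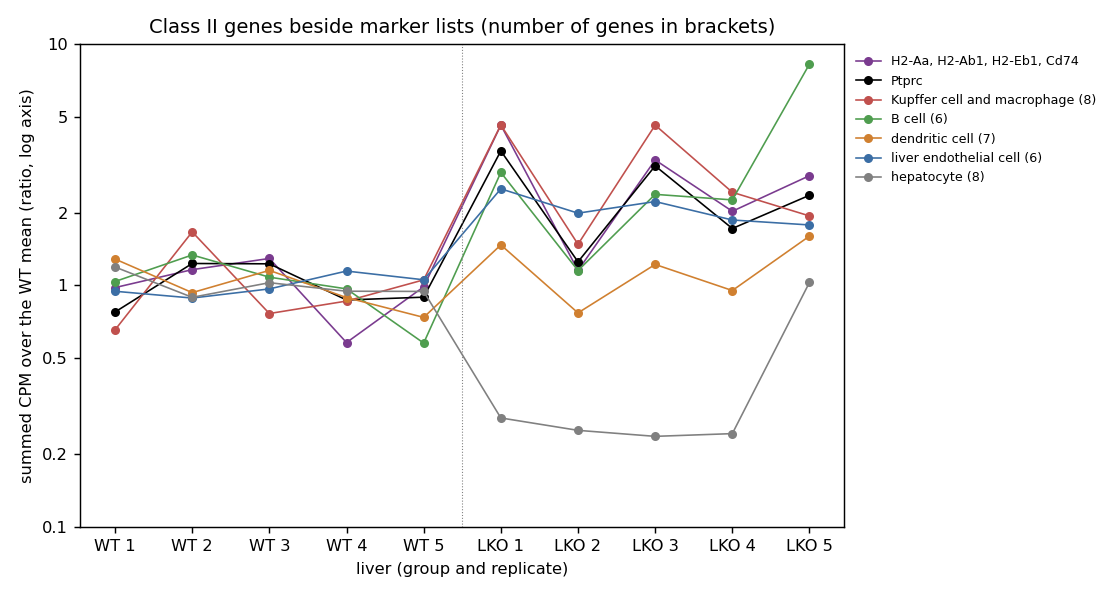
Summed CPM of the class II genes and of marker lists in each liver, divided by the mean of the 5 WT livers (vertical axis, log scale), for WT replicates 1 to 5 and Ndrg3 LKO replicates 1 to 5. The class II sum spans 1.15 to 4.62 times the WT mean in Ndrg3 LKO livers and Ptprc 1.25 to 3.61, while the hepatocyte sum lies between 0.237 and 1.03, with replicate 5 alone near 1.

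Other cell markers moved as well. Of all genes tested, 25.6% were higher and 23% were lower (28.4% and 27.2% without replicate 5). Among 8 hepatocyte genes 6 were lower (median log2 fold change -1.27, and 7 with -1.94 without replicate 5), from Apoa1 (log2 fold change -2.34, SE 0.65, edgeR adjusted p = 0.011) to Cps1 (0.086, SE 0.23, edgeR adjusted p = 0.77), and their sum was 128292 to 171289 CPM in WT livers, 34059 to 40594 CPM in Ndrg3 LKO replicates 1 to 4 and 147921 CPM in replicate 5. Among 6 liver endothelial genes 5 were higher, from Lyve1 (1.99, SE 0.34, edgeR adjusted p = 0.000772) to Stab2 (0.24, SE 0.13, edgeR adjusted p = 0.158), with a median of 1.26, and among 6 stellate cell genes 5 were higher, from Col3a1 (1.79, SE 0.31, edgeR adjusted p = 0.000813) to Des (-0.62, SE 0.59, edgeR adjusted p = 0.408), with a median of 1.14. Of 5 cholangiocyte genes, Spp1 was higher (1.27, SE 0.39, edgeR adjusted p = 0.0181) and Sox9 lower (-0.86, SE 0.26, edgeR adjusted p = 0.0157). The part of these shifts in the class II result was not tested. The sum is mostly Alb, and Hnf4a, Apob and Apoa1 lay below every WT liver in replicate 5 as well (362, 2357 and 14016 CPM). Without replicate 5 the 6 class II genes had log2 fold changes of 1.35 to 1.71, close to those of all 10 livers.

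The promoters of 3 of these class II genes are shown because class II promoters share an X box, which binds RFX and CREB factors, and a Y box, which binds NF-Y. Sequences are from RefSeq on GRCm38.p6, whose coordinates differ from those of mm9, and are written on the strand of the gene, upstream of its start. Capitals mark the letters TGANG, which occur in the X2 element of the X box, and the letters ATTGG of the Y box, 18 to 24 bases further on. The first such TGANG is marked, and it need not be the X2 element itself. In H2-Eb1 and H2-DMb1 another TGATG overlaps the one marked. H2-Aa is at chr17:34287857-34287921 (minus strand), H2-Eb1 at chr17:34305758-34305822 (plus strand) and H2-DMb1 at chr17:34153080-34153144 (plus strand).
H2-Aa: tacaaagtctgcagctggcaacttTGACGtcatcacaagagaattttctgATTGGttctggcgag
H2-Eb1: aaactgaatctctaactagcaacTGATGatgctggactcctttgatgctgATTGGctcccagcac
H2-DMb1: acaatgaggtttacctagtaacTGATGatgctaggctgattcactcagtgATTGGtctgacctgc

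The search for this pair, on either strand, was set after these promoters had been read. RefSeq promoters, from 250 bases before to 50 after the start, were found for 34 of the 51 genes and for 14 of the 23 tested. H2-Ab1, Cd74, Tap2, Ciita and Nlrc5 were among those without an entry. Of all 32851 promoters, 1.89% held the pair, and of the 34 MHC genes 12 held it in any of their promoters. The first share counts promoters and the second counts genes, so they are not like measures. Among the 14 tested genes with a promoter, 5 of the 7 that were higher held the pair (H2-Aa, H2-Eb1, H2-DMb1, H2-Q4 and H2-M3), as did H2-K1, which was lower, and H2-D1 and B2m, which did not pass the test. The log2 fold changes of the 8 tested genes with the pair ran from -0.66 to 1.67.

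The class I genes did not move as a group. Of 32 class I heavy chain genes, 10 were tested, and their median log2 fold change was -0.11. Of these, 2 were higher and 1 was lower, beside 25.6% and 23% of all genes tested. H2-K1 and H2-D1, the classical heavy chains of the C57BL/6 mouse, were among the most abundant members. H2-K1 (chr17:34132962-34137278, minus strand, mm9) stood at 2140, 2326, 2479, 1653 and 2314 CPM in WT livers and at 1862, 802, 1121, 1339 and 1768 CPM in Ndrg3 LKO livers. All 5 Ndrg3 LKO livers lay below the WT mean and 3 below every WT liver, and WT replicate 4, the lowest WT liver, lay within the Ndrg3 LKO range. The log2 fold change was -0.66 (SE 0.24, edgeR adjusted p = 0.0349; exact permutation p = 0.0238), a call near the threshold. When each liver was left out in turn the adjusted p of H2-K1 ran from 0.0124 to 0.0773, and the call was kept without WT replicate 4 and without Ndrg3 LKO replicates 1 and 5 and lost without each of the other 7 livers. With quantile normalization its log2 fold change was 0.0077 (limma, adjusted p = 0.976), so its direction depends on the scaling.

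H2-D1 (chr17:35399675-35404444, plus strand, mm9) was lower in level than H2-K1, at 70.9 against 837 CPM per kb in WT livers. It stood at 169, 212, 230, 115 and 193 CPM in WT livers and at 233, 76.9, 124, 171 and 177 CPM in Ndrg3 LKO livers. The groups overlapped at both ends, since Ndrg3 LKO livers held both the highest and the lowest value. Its log2 fold change was -0.23 (SE 0.27, edgeR adjusted p = 0.501), and 0.27 with library sizes alone. H2-L, a classical gene that the mm9 annotation does not place, had 0 counts in WT livers and at most 2 counts in any Ndrg3 LKO liver.

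B2m encodes β2-microglobulin, the light chain that all class I heavy chains need. It lies at chr2:121973422-121978819 (plus strand, mm9), outside the MHC, and was the most abundant member per length in WT livers, at 2584 CPM per kb. Its levels were 2327, 2319, 2399, 1718 and 2350 CPM in WT livers and 2639, 1372, 1629, 1869 and 2056 CPM in Ndrg3 LKO livers. The groups overlapped, and the difference between their means was smaller than the Ndrg3 LKO SD (480 CPM) but not than the WT SD (284 CPM). The log2 fold change of B2m was -0.22 (SE 0.20, edgeR adjusted p = 0.388). Its direction depended on the scaling, with a log2 fold change of 0.30 with library sizes alone and of 0.59 with quantile normalization, where it passed the test as higher (limma, adjusted p = 0.014). WT replicate 4, low for B2m, was also the lowest WT liver for H2-K1, H2-D1, H2-Q10 and the 3 class II chains.

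**Figure D4:**
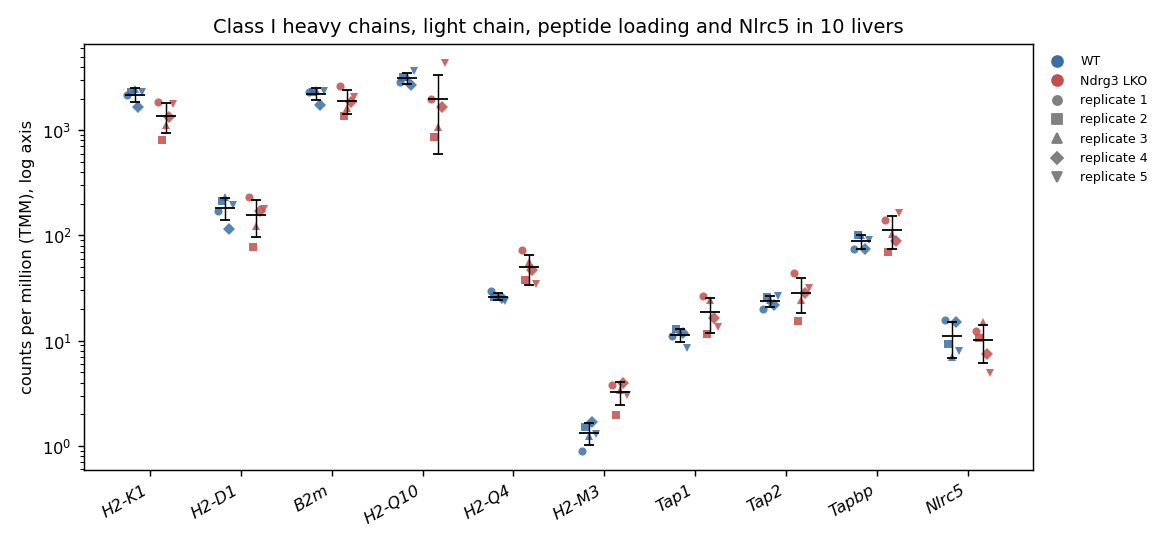
Level of 10 class I pathway genes in each liver (vertical axis, TMM-normalized CPM on a log axis). Each symbol is 1 liver, and black bars show the mean and SD of 5 livers. H2-Q4 and H2-M3 are the only 2 of these genes whose groups do not overlap, and Ndrg3 LKO replicate 5 (triangle pointing down) is above the WT livers for H2-Q10.

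H2-Q10 encodes a class I protein that is secreted by the liver. It had the highest mean CPM of the members in WT livers, while B2m exceeded it in Ndrg3 LKO replicates 1 to 4. It stood at 2892, 3188, 3232, 2691 and 3663 CPM in WT livers and at 1993, 854, 1066, 1650 and 4317 CPM in Ndrg3 LKO livers. Replicates 1 to 4 lay below every WT liver and replicate 5 above every WT liver. In all 10 livers the log2 fold change was -0.66 (SE 0.37, edgeR adjusted p = 0.159), and without replicate 5 it was -1.18 (SE 0.24, edgeR adjusted p = 0.00143), so the call depends on that liver. The level of H2-Q10 divided by that of H2-K1 was 1.3 to 1.63 in WT livers, 0.951 to 1.23 in Ndrg3 LKO replicates 1 to 4 and 2.44 in replicate 5. The summed hepatocyte level of replicate 5, given above, lay within the WT range and that of the 4 other Ndrg3 LKO livers below it.

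Other non-classical class I genes are thought to serve more specialised recognition, and 2 of them were higher. H2-M3, which presents formylated peptides of bacteria, stood at 0.899, 1.52, 1.23, 1.7 and 1.31 CPM in WT livers and at 3.77, 1.97, 3.43, 4 and 3.02 CPM in Ndrg3 LKO livers, without overlap. Its log2 fold change was 1.27 (SE 0.25, edgeR adjusted p = 0.00153; exact permutation p = 0.00794). H2-Q4 stood at 23.8 to 29.6 CPM in WT livers and at 73.4, 37.6, 55.4, 47.4 and 34.5 CPM in Ndrg3 LKO livers, also without overlap, with a log2 fold change of 0.92 (SE 0.19, edgeR adjusted p = 0.00219). H2-Q4, H2-M3, H2-DMa and H2-Eb1 were the 4 tested members whose Ndrg3 LKO livers all lay above the WT livers, a share of the 23 near the 15.6% of all genes tested. None of the 23 lay wholly below, which 15.9% of all genes tested did. H2-Q4 shares 13.5% of its 100-base windows with other sequence of the MHC region and overlaps Gm11131 on the opposite strand, while H2-M3 does neither.

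The other tested non-classical genes did not pass in all 10 livers. H2-T23, which encodes Qa-1 and presents leader peptides of other class I chains to receptors of NK cells, stood at 289 to 426 CPM in WT and 206 to 429 CPM in Ndrg3 LKO livers (log2 fold change -0.28, SE 0.21, edgeR adjusted p = 0.292, and 0.21 with library sizes alone). H2-T10 was at 1.84 ± 0.32 CPM in WT and 1.88 ± 0.82 CPM in Ndrg3 LKO livers (SD, n = 5), with a log2 fold change of 0.019 (SE 0.29). H2-K2, annotated as a pseudogene, had a log2 fold change of -0.52 (SE 0.44), H2-Q1 of 0.83 (0.72) and H2-Q5 of 0.67 (0.44). H2-Q5 passed without replicate 5 (0.89, SE 0.35, edgeR adjusted p = 0.0448), where that liver had the lowest value of the Ndrg3 LKO group, 0.425 CPM. H2-Q1 varied most, between 0.314 and 10.7 CPM among Ndrg3 LKO livers and between 1.89 and 4.8 CPM among WT livers.

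Below the filter, H2-T24 had 6 to 22 counts per WT liver and 23 to 89 per Ndrg3 LKO liver, and its log2 fold change without the filter was 0.99 (SE 0.33, edgeR adjusted p = 0.0298). It passed the filter without replicate 5 and was higher there as well (1.13, edgeR adjusted p = 0.00736), in addition to the 10 genes counted above. It reached 1 CPM before TMM scaling in 0 WT and 4 Ndrg3 LKO livers, so its passing the filter rested on Ndrg3 LKO livers alone. H2-Bl had 4 to 32 counts per WT liver and 4 to 20 per Ndrg3 LKO liver, and H2-Q2 had 3 to 13 and 3 to 18. H2-T3, H2-M2, H2-M5, H2-M9 and H2-M10.6 had at most 9 counts in any liver. Of the 14 genes at 0 in every liver, 7 were H2-Q6, H2-Q7, H2-Q8, H2-Q9, H2-T9, H2-T22 and H2-Ea-ps, and the other 7 belong to the M group. H2-T9 shares 98.3% of its 100-base windows with other sequence of the MHC region, H2-Q7 37.2% and H2-T22 32.9%, and reads that map to several places may not have been counted, so 0 counts do not show that these genes were silent.

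The class I promoters are shown for the 2 classical genes, for the 2 non-classical genes that were higher, for H2-Q10 and for B2m. Class I promoters carry an NF-κB site in enhancer A, an interferon-stimulated response element and, further down, an X and Y module like that of class II genes. Capitals mark GGGGATTCC, a κB sequence, TTTCACTTC, from the interferon-stimulated response element, and the pair TGANG and ATTGG as above. In H2-D1 and H2-M3 a TGACG overlaps the TGATG marked, while in H2-Q4 none does. The stretches are from RefSeq on GRCm38.p6, on the strand of the gene. H2-K1 is at chr17:34000334-34000472 (minus strand), and the others are on the plus strand. H2-D1 is at chr17:35262909-35263048, H2-Q4 at chr17:35379429-35379568, H2-M3 at chr17:37270098-37270233, H2-Q10 at chr17:35469899-35470038 and B2m at chr2:122147529-122147648.
H2-K1: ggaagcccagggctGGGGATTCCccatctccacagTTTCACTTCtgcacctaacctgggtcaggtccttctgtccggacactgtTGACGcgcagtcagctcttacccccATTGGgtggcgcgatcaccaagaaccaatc
H2-D1: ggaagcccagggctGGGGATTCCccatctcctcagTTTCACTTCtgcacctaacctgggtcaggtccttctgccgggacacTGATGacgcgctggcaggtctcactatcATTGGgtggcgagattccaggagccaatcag
H2-Q4: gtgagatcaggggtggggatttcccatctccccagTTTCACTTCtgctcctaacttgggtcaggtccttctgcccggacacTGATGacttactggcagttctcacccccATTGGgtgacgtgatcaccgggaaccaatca
H2-M3: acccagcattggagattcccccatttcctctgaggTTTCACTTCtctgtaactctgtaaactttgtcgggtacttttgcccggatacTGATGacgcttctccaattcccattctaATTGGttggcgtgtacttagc
H2-Q10: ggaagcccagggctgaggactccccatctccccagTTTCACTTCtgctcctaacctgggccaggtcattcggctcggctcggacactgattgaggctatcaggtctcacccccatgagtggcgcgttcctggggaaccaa
B2m: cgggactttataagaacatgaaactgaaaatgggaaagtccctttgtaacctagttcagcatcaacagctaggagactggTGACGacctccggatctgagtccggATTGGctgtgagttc

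Of all 32851 promoters, 0.25% held GGGGATTCC and 0.505% held TTTCACTTC on either strand. Among the 34 MHC genes with a promoter, 4 held the first in any promoter (H2-K1, H2-D1, H2-Q6 and H2-Q7) and 7 the second. H2-Q10 held TTTCACTTC but neither GGGGATTCC nor the pair in its window. Over the 44 bases that end with TTTCACTTC, without gaps, H2-D1 had 43 bases equal to H2-K1, H2-Q10 had 41, H2-Q4 had 37 and H2-M3 had 17. H2-K1 and H2-D1, nearly identical here and with GGGGATTCC, had log2 fold changes of -0.66 and -0.23. Without these letters, H2-Q4 and H2-M3 were higher, at 0.92 and 1.27, while H2-Q10 was at -0.66 and B2m at -0.22. A match of letters is a description of the sequence, and no match says only that these letters are not in this window. H2-Q4 reads ggggatttc at the place of GGGGATTCC, and other forms of a κB site were not searched.

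Of the 3 members that supply class I with peptide, Tap1 was higher, and Tap2 and Tapbp did not pass the test. Tap1 and Tap2 encode the chains of the TAP transporter. Tap1 (chr17:34324498-34334170, plus strand, mm9) stood at 11, 13, 12.2, 11.8 and 8.58 CPM in WT livers and at 26.8, 11.6, 24.6, 16.4 and 13.5 CPM in Ndrg3 LKO livers. Replicate 2 lay within the WT range and the other 4 lay above it. The log2 fold change was 0.72 (SE 0.23, edgeR adjusted p = 0.0228), and it was lost when WT replicate 1 or 5 or Ndrg3 LKO replicate 1 or 3 was left out (0.55 to 0.69, with edgeR adjusted p from 0.051 to 0.0634). Tap1 overlaps Psmb9 on the opposite strand, and Psmb9, an immunoproteasome subunit, had a log2 fold change of 0.47 (SE 0.39, edgeR adjusted p = 0.341). Tap2 stood at 20.2, 26.2, 24.2, 21.6 and 26.3 CPM in WT livers and at 43.6, 15.3, 24.6, 28.1 and 31.7 CPM in Ndrg3 LKO livers, with a log2 fold change of 0.27 (SE 0.23, edgeR adjusted p = 0.333). It overlaps Gm15821 and Gm20496 on the opposite strand.

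Tapbp encodes tapasin, which holds empty class I molecules at the transporter. It stood at 74.3, 102, 101, 74.1 and 89.9 CPM in WT livers and at 140, 69.9, 104, 88.5 and 164 CPM in Ndrg3 LKO livers. The groups overlapped, with 3 Ndrg3 LKO livers above and 1 below every WT liver, and the log2 fold change was 0.36 (SE 0.22, edgeR adjusted p = 0.187). Its exons overlap those of Zbtb22 on the same strand. Nlrc5, the class I transactivator, stood at 15.7, 9.29, 7.03, 15.2 and 7.93 CPM in WT livers and at 12.3, 10.7, 15, 7.42 and 4.91 CPM in Ndrg3 LKO livers, a log2 fold change of -0.13 (SE 0.31, edgeR adjusted p = 0.752). With library sizes alone the value of Nlrc5 was 0.43. For Nlrc5 the difference between the group means was smaller than the SD of either group (4.14 CPM in WT, 3.98 CPM in Ndrg3 LKO livers). For Tapbp it was smaller than the Ndrg3 LKO SD (38.2 CPM) but not than the WT SD (13.6 CPM).

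Among 11 further genes of class I peptide supply, none was higher and 2 were lower, with a median log2 fold change of -0.18. For comparison, 25.6% of all genes tested were higher and 23% lower, so 2 of 11 lower is not above that share. Erap1, which trims peptides in the endoplasmic reticulum, fell in every Ndrg3 LKO liver below the WT livers, as 15.9% of all genes tested did. Its level went from 79.6 ± 5.06 to 56.4 ± 9.92 CPM (SD, n = 5), with a log2 fold change of -0.50 (SE 0.13, edgeR adjusted p = 0.00937). Canx, a chaperone of new heavy chains, was also lower, with a log2 fold change of -0.52 (SE 0.16, edgeR adjusted p = 0.0182). The lowest value was that of the immunoproteasome subunit Psmb8 at -0.84 (SE 0.40, edgeR adjusted p = 0.103) and the highest that of Tapbpl, a relative of tapasin, at 0.51 (SE 0.21, edgeR adjusted p = 0.0607). Without replicate 5, 1 of the 11 was higher and 2 were lower.

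Among the genes of class II peptide supply, 7 of 8 were higher, beside 25.6% of all genes tested, with a median log2 fold change of 0.71. They were the proteases Ctss, Ctsl, Ctsb, Ctsd and Lgmn, the thiol reductase Ifi30 and the endosomal tetraspanin Cd63. Ctss, which cleaves the invariant chain in macrophages, B cells and dendritic cells, stood at 16.6 ± 6 CPM in WT and 46.9 ± 21.8 CPM in Ndrg3 LKO livers (SD, n = 5), with a log2 fold change of 1.50 (SE 0.33, edgeR adjusted p = 0.00336). The highest value was that of Cd63 at 3.31 (SE 0.32, edgeR adjusted p = 1.96e-05) and the lowest that of clathrin light chain Clta at -0.082 (SE 0.17, edgeR adjusted p = 0.709). Several of these are general lysosomal genes that hepatocytes also express. Ctsl, Ctsb and Ctsd stood at 428 to 846 CPM on average in WT livers, beside 16.6 CPM for Ctss, and had log2 fold changes of 0.39 to 0.68. Without replicate 5, 7 of the 8 were higher as well.

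Of 7 genes of the complex that binds class II promoters, 2 were higher and none was lower, with a median log2 fold change of 0.32. These were Nfya, a subunit of NF-Y (0.62, SE 0.21, edgeR adjusted p = 0.0308), the highest of the list, and Creb1 (0.57, SE 0.15, edgeR adjusted p = 0.0096). Rfx5, a subunit of the RFX complex, was the lowest at -0.60 (SE 0.24, edgeR adjusted p = 0.0552). Without replicate 5, 3 were higher and 2 were lower. In all 10 livers, 2 of 7 is near the 25.6% of all genes tested that were higher.

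Of 10 genes of interferon γ signalling, the main inducer of both MHC classes, 8 were tested. Of these, 1 was higher and 2 were lower, beside 25.6% and 23% of all genes tested, and the median was 0.19. The receptor chain Ifngr1 rose from 12.6 ± 1.9 CPM in WT to 38.1 ± 7.91 CPM in Ndrg3 LKO livers (SD, n = 5), without overlap (log2 fold change 1.60, SE 0.18, edgeR adjusted p = 4.34e-05). Of all genes tested, 15.6% lay wholly above the WT livers. Jak2 was lower (-0.44, SE 0.14, edgeR adjusted p = 0.0186), and so was Irf2, a repressor of interferon responses, which had the lowest value (-0.65, SE 0.20, edgeR adjusted p = 0.0166). Irf1, which drives Ciita and class I genes, had a log2 fold change of 0.26 (SE 0.27, edgeR adjusted p = 0.444). Ifng itself was below the filter in both groups, at 0.0112 ± 0.0249 CPM in WT and 0.0201 ± 0.0202 CPM in Ndrg3 LKO livers (SD, n = 5), under the 3 counts taken as detectable.

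H2-Ke6 and H2-Ke2 carry H2 symbols for their place in the MHC but take no part in antigen presentation. H2-Ke6, a dehydrogenase gene of steroid and fatty acid metabolism, stood at 79.3 to 109 CPM in WT livers and at 53.3, 31.7, 35.3, 63.5 and 104 CPM in Ndrg3 LKO livers. It was lower with a log2 fold change of -0.78 (SE 0.28, edgeR adjusted p = 0.0364) and, without replicate 5, of -1.12 (SE 0.21, edgeR adjusted p = 0.000754). Ndrg3 LKO replicates 1 to 4 lay below every WT liver and replicate 5 within the WT range. The call was kept without WT replicate 4 and without Ndrg3 LKO replicate 5 and lost without each of the other 8 livers, with a highest edgeR adjusted p of 0.0777. H2-Ke6 overlaps the annotated gene Gm20427 on the same strand and shares 59.8% of its 100-base windows with it or other sequence of the region, so its count is uncertain. H2-Ke2, a prefoldin subunit gene, had a log2 fold change of 0.23 (SE 0.18, edgeR adjusted p = 0.302).

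The other genes of the same stretch of chromosome were examined beside the members. From Tapbp to H2-Ea-ps, a stretch of 429 kb that holds the class II genes, 12 members and 11 other genes were tested. Of the 12 members 6 were higher and 2 lower, with a median log2 fold change of 0.54, and of the 11 others 1 was higher, none was lower, and the median was 0.16. That gene was Slc39a7, a zinc transporter (0.51, edgeR adjusted p = 0.0231). Brd2, Psmb9 and Psmb8, the 3 other tested genes between H2-Oa and H2-Ea-ps, did not pass the test, while 6 of the 7 members there did. Over all genes tested, 25.6% were higher and 23% were lower. Further along the MHC region, genes that are not members were called in both directions, so changes there were not confined to members.

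**Figure D5:**
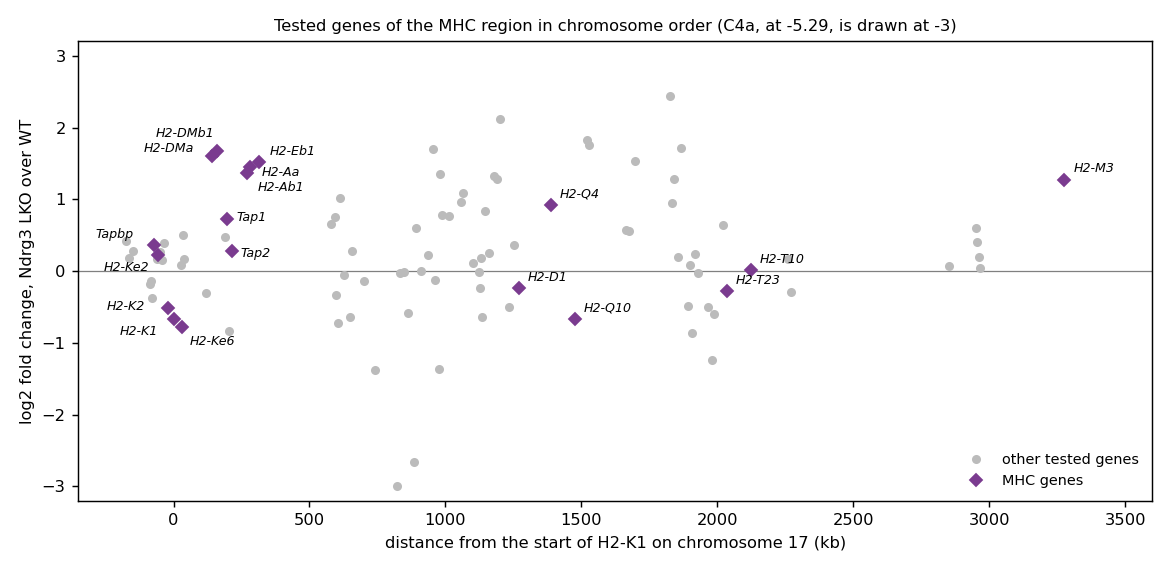
Log2 fold change of tested genes along the MHC region (vertical axis, Ndrg3 LKO over WT) against distance from the start of H2-K1 on chromosome 17 (horizontal axis, kb). Diamonds are the MHC genes and grey points all other tested genes. The class II genes form a group between 1.37 and 1.67 within 429 kb, and the grey points of that stretch lie between -0.84 and 0.51.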

How the data were processed

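Messenger RNA of 10 livers was sequenced by the authors as stranded, paired-end libraries of 100 bp reads, mapped to mm9 with STAR and counted per gene. The methods give STAR 2.5.1, while the submitters' processing notes give STAR 2.7.3a with Trim Galore 0.6.4 and Cufflinks 2.2.1. The annotation and strand setting are not given in the sources used here. The deposited values are whole-number counts per gene symbol without normalization, although they are called CPM. The members and gene lists were chosen with earlier results of these data known.

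Counts were tested with edgeR 4.0.16 (quasi-likelihood, TMM, R 4.3.3). Genes were tested if they reached 1 CPM, before TMM scaling, in 5 or more of 10 livers (4 or more of 9). Benjamini-Hochberg adjustment was made over all genes tested, with a threshold of 0.05. Standard errors (SE) were obtained from the fitted log2 fold change and its F statistic. Exact permutation tests on log2(CPM + 1) were 2-sided. The tests were checked on simulated counts. Alternatives were library-size scaling, DESeq2 1.42.0 and its size factors, limma 3.58.1 on log2(CPM + 1) and on quantile-normalized values, no filter, a mean CPM of at least 5, an absolute log2 fold change above 1, the replicate number as a block, and each liver left out. List counts without Ndrg3 LKO replicate 5 were added after seeing the data.

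All tested members are given. Per-liver values are given for 15 members listed by name and for others that passed with an absolute log2 fold change above 1 (H2-M3), with H2-Q4 and H2-Ke6 added after their values were seen. In other lists, the genes that passed and the highest and lowest are named. GENCODE M1 on NCBIM37, the same assembly as mm9, placed 47 of the 51 genes and gave exon lengths. Of the listed markers, Marchf1 and Ly6g were not found, and 25 symbols look like dates. Some results are not reported here.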

Additional observations from a re-analysis of the deposited data

Results flagged for a closer look

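In 46 groups of 5 livers (23 tested genes in each genotype), 2 values stood apart from the other 4 by Dixon's criterion (gap over range above 0.71), where chance gives about 1 in 20 groups. Both were WT replicate 4, the lowest liver, for B2m (1718 CPM against 2319 to 2399 CPM, gap over range 0.898) and for H2-Eb1 (7.13 CPM against 10.3 to 11.9 CPM, gap over range 0.711). Without this liver the log2 fold change was -0.31 for B2m and 1.39 for H2-Eb1.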

How the results depend on the processing

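Over 407 combinations of a member and an alternative, 360 kept direction and side of the threshold, 23 lost the call, 6 gained one and 18 changed sign. The 6 class II genes, H2-M3 and H2-Q4 kept their call in each of the 10 fits without 1 liver, and the number of higher members was between 8 and 11 there. H2-T24 is counted in the fits without a WT liver or without Ndrg3 LKO replicate 5. It passed the filter there through Ndrg3 LKO livers alone. The number of lower members, 2 in all 10 livers, was 0 to 3 without 1 liver, 0 with library-size scaling or an absolute log2 fold change above 1, and 1 with quantile normalization or a mean CPM of at least 5. Library-size scaling moved the median of all genes tested from 0.031 to 0.56 and that of the members from 0.36 to 0.84, and gave 13 higher members. Relative to the median of all genes, B2m was then at -0.26 and H2-K1 at -0.73, against -0.25 and -0.69 with TMM. Without a filter the members' median was 0.88, since low members enter. Library-size scaling gave 0.27 for H2-D1, 0.21 for H2-T23, 0.30 for B2m and 0.43 for Nlrc5. Quantile normalization gave 0.0077 for H2-K1, -0.20 for H2-T10 and 0.59 for B2m, which then passed as higher. H2-T10 was at -0.019 with limma, -0.024 without a filter and -0.27 to 0.16 without 1 liver, and Nlrc5 at -0.32 to 0.028, positive in 3 such fits. The causes were not tested.

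The livers share replicate numbers but no known pairing, and deviations of same-numbered livers correlated at -0.357 to 0.0363. With the replicate block, 9 members were higher and 1 was lower, H2-K1 losing its call (-0.71, edgeR adjusted p = 0.0587), and H2-T10 was at -0.06. Depth limits the members under 1 CPM, where counts of 0 to 3 carry no comparison.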

Other observations

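Between the class II genes and H2-D1 lie genes of the complement system, chosen here after their values were seen. All 4 tested were lower in Ndrg3 LKO livers. C2 was at 165 to 228 CPM in WT and 19.2 to 65.4 CPM in Ndrg3 LKO livers (log2 fold change -2.65, edgeR adjusted p = 7.91e-05). C4b was at 1251 to 1871 CPM in WT and 299 to 854 CPM in Ndrg3 LKO livers (-1.37, edgeR adjusted p = 0.002), and Cfb at 1382 to 1603 and 814 to 1245 CPM (-0.58, edgeR adjusted p = 0.0136). C4a was at 46.6 ± 28.5 CPM in WT and 1.26 ± 1.12 CPM in Ndrg3 LKO livers (SD, n = 5; log2 fold change -5.29, edgeR adjusted p = 5.51e-05), though reads of C4a and C4b, near-identical copies, may have been split between them. The groups did not overlap for any of the 4. Of all genes tested, 23% were lower and 15.9% lay wholly below the WT livers. Other tested genes of that interval were called in both directions. These are secreted proteins made largely by hepatocytes.

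A list of co-stimulatory genes also held the adhesion gene Icam1 and the inhibitory ligand genes Cd274 and Pdcd1lg2. Of 6 listed, Cd86 and Icam1 were tested and both were higher, beside 25.6% of all genes tested. Cd86 was at 0.811 ± 0.322 CPM in WT and 2.36 ± 1.03 CPM in Ndrg3 LKO livers (SD, n = 5; log2 fold change 1.51, edgeR adjusted p = 0.00765). Icam1 was at 5.63 ± 1.67 and 25.6 ± 14.7 CPM (2.18, edgeR adjusted p = 0.0011), with 7.51 CPM in Ndrg3 LKO replicate 5. Cd80, Cd40, Cd274 and Pdcd1lg2 were below the filter, at 0.0119 to 0.461 CPM on average in WT and 0.0218 to 1.9 CPM in Ndrg3 LKO livers. Cd40 and Cd274 lay wholly above the WT livers, as 15.6% of all genes tested did, while Cd80 and Pdcd1lg2 overlapped. Without replicate 5, Cd274 passed the filter through Ndrg3 LKO livers alone and was higher (2.19, edgeR adjusted p = 0.000224).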
